A study of Torulaspora delbrueckii with 17 samples.

Results

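Kos3 was mapped by chromatin immunoprecipitation and sequencing in the budding yeast Torulaspora delbrueckii carrying the orc1P179A allele, and the peak lists were set against those of wild type. All peaks of the 4 lists were used, which were 1675 of the 5717 peaks of the series and came from 4 of its 17 samples. The orc1P179A lists came from 2 strains, LRY3215 (first list) and LRY3216 (second list), and held 725 and 726 peaks. The wild-type lists were 2 libraries of 1 strain, LRY3211, and held 105 and 119 peaks. Every one of these strains carried V5-tagged Kos3 and MYC-tagged Orc1, the mutant strains with the orc1P179A allele as the tagged copy. Precipitation was through the V5 tag, from cells grown in YPD at the same temperature. All 4 lists were called, per the file names, on 1 input library of the untagged strain JRY10156, which is none of the precipitated strains. The series calls its paired libraries technical replicates, so that the spread between the wild-type lists is technical, while that between the orc1P179A lists also holds the difference between 2 strains.

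Orc1 is the largest subunit of the origin recognition complex, which marks replication origins. Its amino terminus carries a BAH domain, a module that binds nucleosomes, and the allele name orc1P179A gives a change of a proline to an alanine. In Saccharomyces cerevisiae, the Orc1 BAH domain recruits Sir1 to the silencers of the silent mating-type loci, where Sir1 helps the deacetylase complex of Sir2, Sir3 and Sir4 to assemble silent chromatin. Kos3 belongs to the family of Sir1-related proteins. The comparison asks where Kos3 is bound when Orc1 carries the altered residue.

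The picture differed by chromosome. On chromosomes 1 to 7 the orc1P179A lists held fewer and shorter Kos3 regions than wild type, and 32 of 37 (86.5%) and 38 of 47 (80.9%) of them overlapped a wild-type region. On chromosome 8 they held many short regions of low fold, nearly all at places where wild type had none. A region is a deposited peak, its fold is the authors' enrichment of the immunoprecipitate over background at that peak, and an overlap of 1 bp made regions of different lists shared. Since 2 lists stood against 2, the smallest two-sided p of an exact permutation test is 0.33, and values are given for each list, with means and SDs (n = 2 each) and no p-value.

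Chromosomes 1 to 7 held 37 and 47 Kos3 regions in the orc1P179A lists, against 93 and 100 in the wild-type lists. The groups did not overlap, with means of 42 ± 7.07 in orc1P179A and 96.5 ± 4.95 in wild type and a ratio of 0.435. The covered length differed more than the number. It was 16.98 and 18.2 kb in orc1P179A, against 72.3 and 87.1 kb in wild type, a ratio of 0.221. The widest region on these chromosomes was 1654 and 1568 bp in the orc1P179A lists and 6473 and 6528 bp in the wild-type lists. The highest fold was 5.49 and 4.02 in orc1P179A and 19.5 and 21.2 in wild type, each a value within its own list. Peak lists hold no read counts, so depth is unknown and none of these values could be adjusted for it. How far the chromosome 8 signal in the orc1P179A libraries moved the calls on the other chromosomes was not tested.

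**Figure D1:**
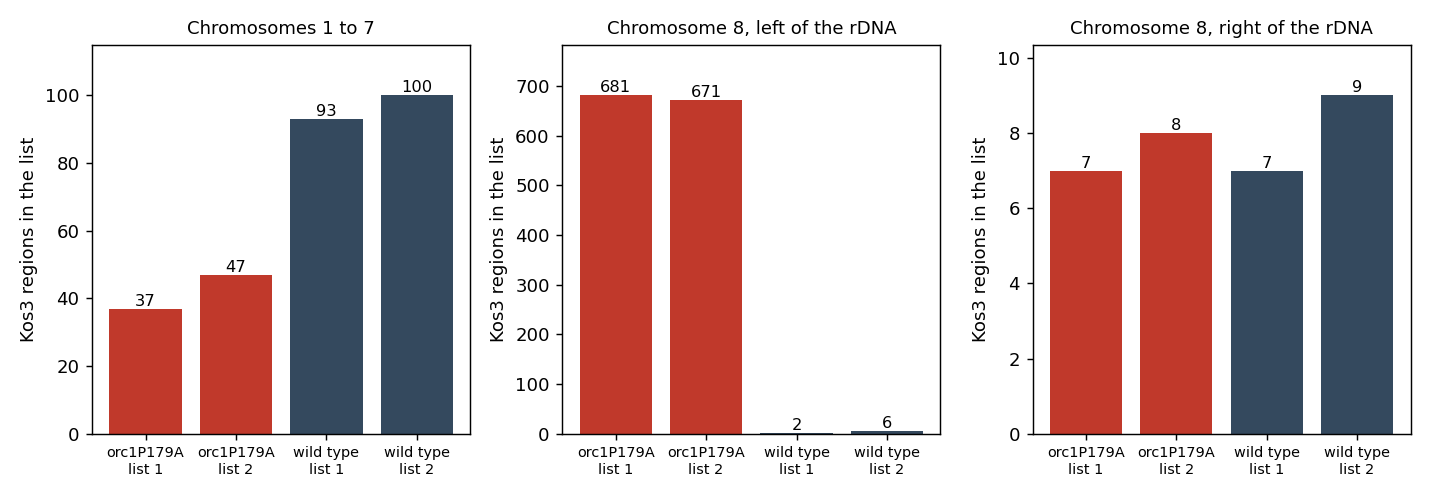
Number of Kos3 regions in each deposited list, in 3 panels with separate vertical axes for chromosomes 1 to 7, chromosome 8 left of the rDNA and chromosome 8 right of it; each bar is 1 list, orc1P179A in red and wild type in dark blue. The orc1P179A lists held 37 and 47 regions on chromosomes 1 to 7, against 93 and 100 in wild type, and 681 and 671 left of the rDNA, against 2 and 6.

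Both wild-type lists together defined 53 Kos3 regions on chromosomes 1 to 7. Of these, 18 were found in both orc1P179A lists, 7 in 1 of them and 28 in neither. The background rate of a region missing from both was 50% over all 62 wild-type regions of the genome and 52.8% on chromosomes 1 to 7 (Wilson 95% interval 39.7% to 65.6%, counting error only). Taken by list, orc1P179A held 21 and 22 of the 53, a mean of 40.6% ± 1.33. This share depends on which regions are compared. Against the regions of a single wild-type list it was 26.3% and 21.5% (first and second list), and among the 37 regions of highest −log10 q in each list it was 65.4%.

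Regions missing from both orc1P179A lists had low folds in wild type. The 18 regions found in both orc1P179A lists had a median wild-type fold of 6.63, and the 28 in neither had a median of 2.43 and a maximum of 4.28. Of the 12 wild-type regions with a mean fold of at least 5, 10 were in both orc1P179A lists, 2 in 1 list and 0 in neither. Of the 32 with a mean fold under 3, 5 were in both and 23 in neither. The position along the chromosome separated them less. Within 20 kb of a chromosome end 18 of 33 regions (54.5%) were in neither list, and farther inside 10 of 20 (50%), both near the background of 52.8%. The 3 wild-type regions whose summit lay within 500 bp of a tRNA gene were all in both orc1P179A lists, and all 3 had mean wild-type folds above 9. On chromosome 4, 6 of 8 regions were in both orc1P179A lists and 0 in neither. On chromosome 3, 2 of 11 were in both and 8 in neither.

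**Figure D2:**
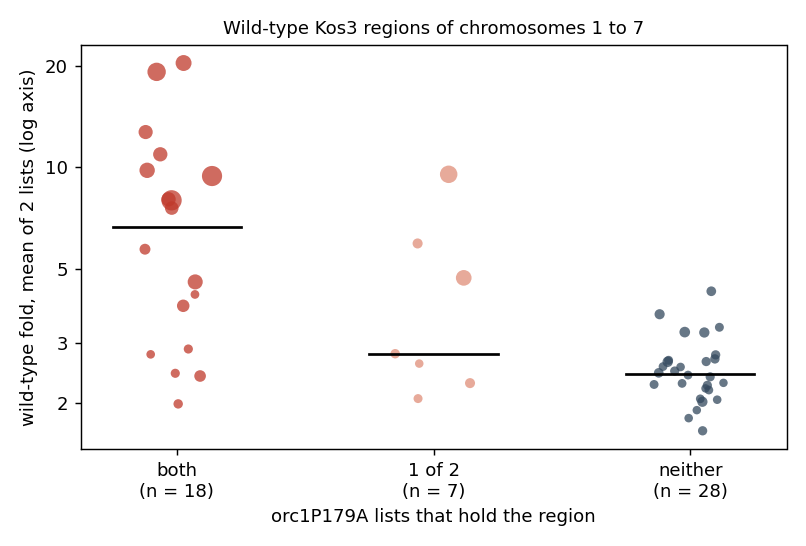
Mean fold of each of the 53 wild-type Kos3 regions of chromosomes 1 to 7 in the 2 wild-type lists (log axis), grouped by how many orc1P179A lists hold the region; point area grows with the length covered in wild type and bars are medians. Regions in both orc1P179A lists had a median wild-type fold of 6.63, those in neither a median of 2.43.

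Where Kos3 regions were kept, they were shorter. At the 18 wild-type regions found in both orc1P179A lists, Kos3 covered 14.4 and 14.5 kb in orc1P179A, against 43.0 and 46.6 kb in wild type, a ratio of 0.322. Only the part of an orc1P179A peak inside the wild-type region was counted, while wild-type peaks lie wholly inside it. By this measure each orc1P179A list covered less than each wild-type list at 17 of the 18. At 4946 to 5528 on chromosome 4 that result rests on the measure. The first orc1P179A list covered 350 bp inside the region and 449 bp in full, against 483 and 433 bp in wild type. The length kept inside the wild-type borders ranged from 11.9% to 75.8%, with a median of 37.0%. The 10 regions covering over 2 kb in wild type kept from 11.9% to 52.8% of it, and the 4 covering under 500 bp kept from 59.5% to 75.8%. On chromosomes 1 to 7 the shortest orc1P179A peaks were 203 and 200 bp. A short region that was still called therefore had little length to lose. The 18 places held 28 and 34 peaks in orc1P179A, against 27 and 18 in wild type.

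The strongest wild-type region lay on chromosome 5 at 72931 to 76639, between the tRNA gene TDEL0Etrna12V and TDEL0E00330. Kos3 covered 830 and 956 bp there in orc1P179A, against 3521 and 3671 bp in wild type, and the highest folds were 5.49 and 3.15 in orc1P179A and 19.5 and 21.2 in wild type. The orc1P179A summits lay 45 and 70 bp from the wild-type summit, and both lay inside TDEL0Etrna12V, while the wild-type summits lay just outside it. This was the strongest Kos3 region of the first orc1P179A list and of both wild-type lists.

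On chromosome 2, at 2390 to 7863 between TDEL0B00100 and TDEL0B00110, Kos3 covered 495 and 726 bp in orc1P179A, against 5209 and 5059 bp in wild type. Folds there were 2.10 and 1.98 in orc1P179A and 17.9 and 20.5 in wild type. Among the 18 regions in both orc1P179A lists this one kept the least of its length, 11.9%. In wild type it was the second strongest region of each list.

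The region beside HMLALPHA1 on chromosome 3, at 1275565 to 1278494, covered 737 and 841 bp in orc1P179A, against 2337 and 2884 bp in wild type. Folds were 4.15 and 3.73 in orc1P179A and 12.1 and 13.3 in wild type, and the orc1P179A summits lay 22 and 9 bp from the wild-type one. HMLALPHA1 and HMLALPHA2 are the mating-type genes of the silent locus HML, from 1273613 to 1275265, and no other mating-type gene is named in the annotation. Over the locus and 5 kb on each side, Kos3 covered 1192 ± 304 bp in orc1P179A and 6195 ± 1416 bp in wild type, a ratio of 0.192.

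The wild-type lists held 8 and 6 separate regions across that stretch, on both sides of the genes and over them. The orc1P179A lists held 2 and 3. Besides the peak beside HMLALPHA1, orc1P179A kept a weak signal over and between the 2 HML genes, where Kos3 covered 240 and 566 bp in orc1P179A and 1549 and 2037 bp in wild type. The highest folds there were 1.98 and 2.14 in orc1P179A and 3.50 and 4.26 in wild type. The wild-type regions on the VAC17 side, at 1269436 to 1270758 and 1271476 to 1271977, and those beyond the strong peak, at 1278634 to 1279330 and 1280100 to 1280533, were in neither orc1P179A list.

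On chromosome 7 at 34411 to 37776, beside the tRNA gene TDEL0Gtrna5V, Kos3 covered 641 and 755 bp in orc1P179A, against 2372 and 3007 bp in wild type. In FRE4 on chromosome 4, at 1192143 to 1195738, it covered 1521 and 583 bp in orc1P179A and 2950 and 3594 bp in wild type. FRE4 is a ferric reductase gene in Saccharomyces cerevisiae. The orc1P179A summits lay 56 and 42 bp from the wild-type one at the first place, inside TDEL0Gtrna5V, and 51 and 54 bp from it in FRE4.

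Of the 8 strongest wild-type regions, 3 reached a chromosome end. At the right end of chromosome 4, at 1215392 to 1218162, orc1P179A kept the largest share of these 8, with 1466 and 1429 bp covered, against 2767 and 2711 bp in wild type. Its folds of 4.49 and 4.02 ranked second in each orc1P179A list, and the wild-type folds were 8.49 and 7.56. At the left end of chromosome 7, at 1 to 6523, 4 and 8 orc1P179A peaks covered 1805 and 2688 bp, against 6291 and 6523 bp in wild type. At the right end of chromosome 1, at 1413531 to 1418118, the first orc1P179A list held 331 bp with a fold of 1.67 and the second held 0, against 4578 and 4515 bp with folds of 8.59 and 10.5 in wild type. That end was the strongest wild-type region that was not in both orc1P179A lists.

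**Figure D3:**
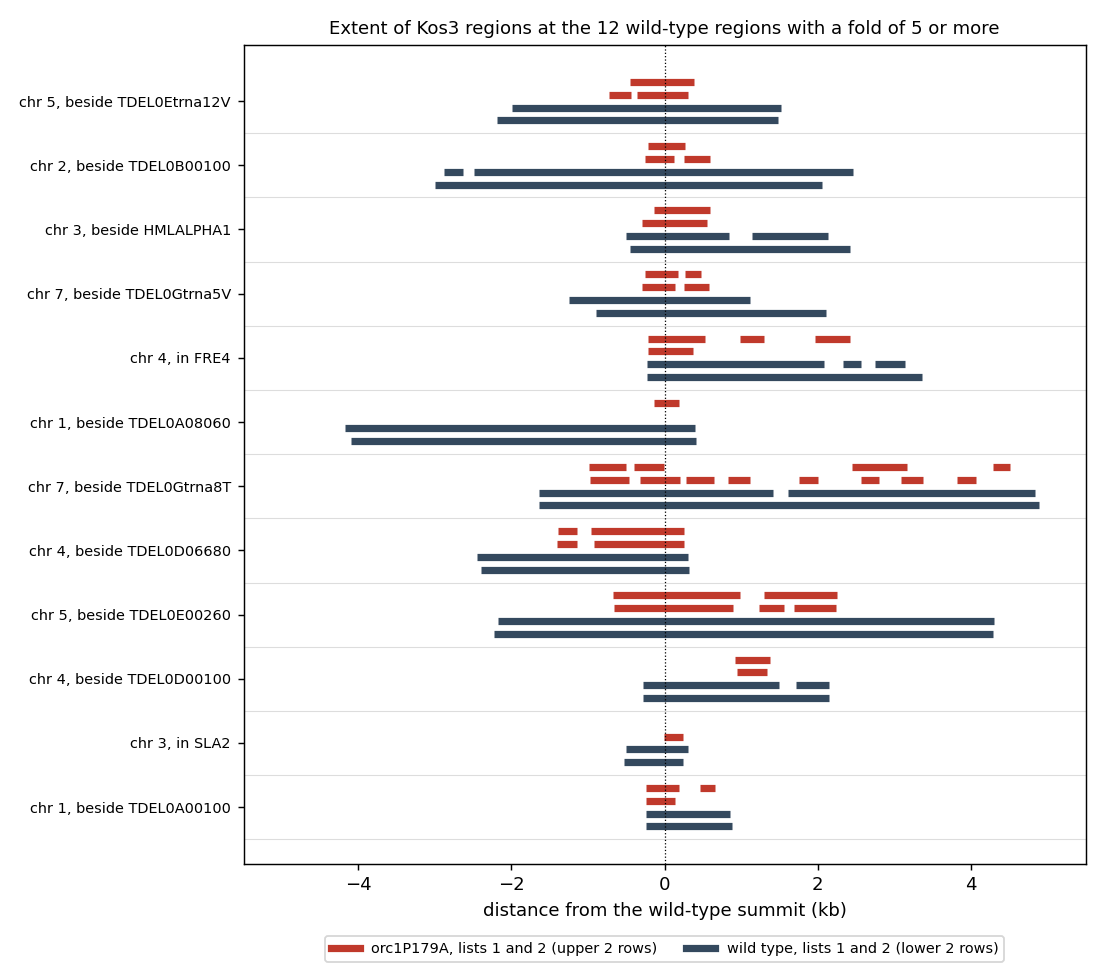
Extent of Kos3 regions at the 12 wild-type regions of chromosomes 1 to 7 with a mean fold of at least 5, in order of fold from the top, as distance in kb from the wild-type summit (dotted line); each row of bars is 1 list, with the 2 orc1P179A lists in red above the 2 wild-type lists in dark blue. The red bars are shorter and mostly lie at the dotted line; beside TDEL0Etrna12V they cover 830 and 956 bp, against 3521 and 3671 bp in wild type.

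Summits at the 18 kept regions were a median of 106 bp apart between an orc1P179A and a wild-type list. The median was 148 bp between the 2 orc1P179A lists and 31.5 bp between the 2 wild-type lists. All 4 summits lay within 200 bp of each other at 6 of the 18 regions, and at 4 of the 10 with a mean wild-type fold of at least 5. At the chromosome 2 region described above the second orc1P179A summit lay 503 bp from the wild-type one, and at the left end of chromosome 7 it lay 465 bp from it. At the left end of chromosome 1, at 1 to 1122, the first orc1P179A summit lay 612 bp away. Both orc1P179A summits were displaced at the right end of chromosome 5, at 1083672 to 1086929, by 776 and 1157 bp. At the left end of chromosome 4, at 1 to 2430, both were displaced too. The wild-type summit there lay at 286, whereas the orc1P179A regions lay farther in, with 455 and 389 bp covered, against 2198 and 2430 bp in wild type.

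Coverage was lower in orc1P179A at every end that Kos3 occupied in both wild-type lists. Of the 14 ends of chromosomes 1 to 7, 12 had Kos3 in the outer 20 kb in both wild-type lists, and at all 12 each orc1P179A list covered less than each wild-type list. The outer 20 kb of these ends together held 9.43 and 10.0 kb of Kos3 in orc1P179A, against 44.4 and 55.2 kb in wild type, a ratio of 0.195. At 3 ends neither orc1P179A list had a region, the left ends of chromosomes 3 and 6 and the right end of chromosome 7, where wild type had from 0 to 2.00 kb. The lowest ratio at an end held by an orc1P179A list was at the right end of chromosome 1, where 0.331 and 0 kb remained in orc1P179A, against 4.93 and 6.35 kb in wild type. The right end of chromosome 4 kept 1.47 and 1.43 kb in orc1P179A, against 3.10 and 2.71 kb in wild type.

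By distance from the end, the ratio was lowest from 5 to 20 kb and highest more than 100 kb inside. From 0 to 5 kb, orc1P179A covered 7.28 and 7.01 kb and wild type 30.8 and 35.9 kb, a ratio of 0.214. From 5 to 20 kb it was 2.15 and 3.02 kb, against 13.6 and 19.4 kb, a ratio of 0.157. From 20 to 100 kb it was 6.17 and 6.24 kb, against 23.8 and 27.0 kb, a ratio of 0.244. More than 100 kb inside, where wild type covered little, it was 1.39 and 1.94 kb, against 4.07 and 4.82 kb, a ratio of 0.375. In no band did a list of one group reach into the range of the other.

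**Figure D4:**
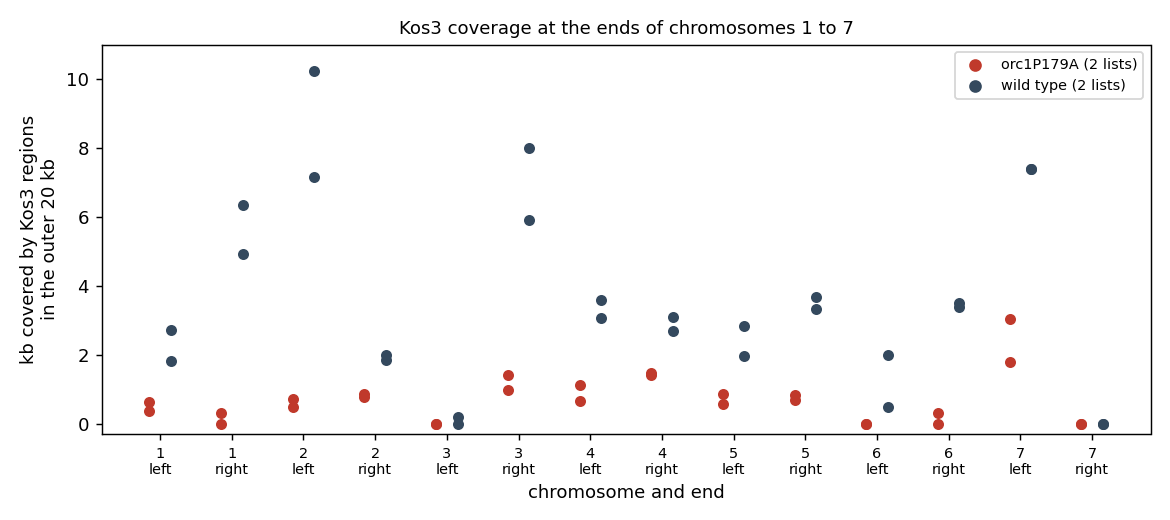
Length covered by Kos3 regions in the outer 20 kb of each end of chromosomes 1 to 7, in kb; each point is 1 list, orc1P179A in red at the left of each pair and wild type in dark blue at the right. At 12 of the 14 ends both red points lie below both wild-type points.

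Away from the ends, the largest Kos3 cluster lay on the left arm of chromosome 5. Between 49613 and 79495 wild type had 8 regions, of which 2 were in both orc1P179A lists and 6 in neither. From 20 to 100 kb of that end Kos3 covered 3.44 and 3.40 kb in orc1P179A, against 15.5 and 16.6 kb in wild type. The kept regions were the one beside TDEL0Etrna12V and a wide one at 49613 to 56145 between TDEL0E00260 and TDEL0E00270. At the wide one 2611 and 2448 bp remained in orc1P179A, against 6473 and 6528 bp in wild type.

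The 6 strongest regions in neither orc1P179A list included 4 of this cluster. Of these, 2 lay beside the gene that the annotation names SIR1, at 77919 to 78461 with wild-type folds of 3.31 and 3.38 and at 78494 to 79495 with wild-type folds of 3.54 and 3.77. The others of the cluster were at 70827 to 72189, with folds of 2.80 and 3.68, and at 58077 to 59099, with folds of 3.28 and 3.18. The other 2 lay at chromosome ends. Chromosome 2 had one from 17 to 816 (wild-type folds 3.45 and 5.11), and chromosome 3 one from 1290565 to 1291102 (wild-type folds 2.80 and 2.75). Within 5 kb of SIR1 itself orc1P179A covered 830 and 956 bp, all at the strong region beside the tRNA gene, against 3381 and 4208 bp in wild type. Within 5 kb of SIR2 and ORC1 no list of either group had a Kos3 region, and no gene of the annotation is named KOS3.

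Only 6 wild-type regions lay more than 100 kb from an end of chromosomes 1 to 7. Both orc1P179A lists held the region between CAR2 and DIF1 on chromosome 4 at 186474 to 186774, with 210 and 234 bp covered in orc1P179A, against 285 and 301 bp in wild type. They also held the one at 832971 to 833327 on chromosome 4 between TDEL0D04540 and MAM3. It had 231 and 259 bp covered in orc1P179A, against 295 and 357 bp in wild type. Folds there were 2.41 and 2.40 in orc1P179A, against 3.67 and 4.71 in wild type. CAR2 is an enzyme of arginine breakdown and DIF1 regulates ribonucleotide reductase in Saccharomyces cerevisiae. Inside the wild-type borders these 2 kept more of their length, 75.8% and 75.2%, than any of the other 16 regions found in both orc1P179A lists. That ranking rests on counting only length inside the borders. At 4946 to 5528 on chromosome 4 the full orc1P179A peaks had 449 and 279 bp, against 483 and 433 bp in wild type. The 2 interior regions were short in wild type, and the shortest orc1P179A peaks on these chromosomes were 203 and 200 bp. The share kept at such regions is therefore bounded by peak width and is no measure of binding.

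At SLA2 on chromosome 3, an actin-binding protein of endocytosis in Saccharomyces cerevisiae, the second orc1P179A list alone had a region. It covered 0 and 249 bp in orc1P179A, against 810 and 767 bp in wild type at 1050825 to 1051656. The orc1P179A fold in the second list was 2.07, and wild-type folds were 4.90 and 6.98. The region between TDEL0F02020 and TDEL0F02030 on chromosome 6, at 369701 to 369995, was in the first orc1P179A list alone. Those between UBA2 and IDH2 on chromosome 1, at 598999 to 599501, and between TDEL0C05800 and TDEL0C05810 on chromosome 3, at 1048505 to 1048799, were in neither.

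The remaining regions held by 1 orc1P179A list lay near ends. On chromosome 6 at 1067136 to 1070637, the second orc1P179A list covered 333 bp with a fold of 1.32, and the first 0, against 3388 and 3502 bp in wild type. On chromosome 4 at 2647 to 3367, in TDEL0D00100, the first list held 230 bp. At 1196347 to 1197287 on the same chromosome, between TDEL0D06610 and TDEL0D06620, the second list held 333 bp. On chromosome 5 at 274 to 865, in TDEL0E00100, a peak of the second list reached 119 bp into the region. Its summit, at 233, lay outside the wild-type region.

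No Kos3 site outside the wild-type set was found in both orc1P179A lists on chromosomes 1 to 7. Both lists shared 23 regions there, of which 0 (0%) were in neither wild-type list. Where summits within 200 bp, in place of overlap, made regions shared, 7 regions in both orc1P179A lists were in neither wild-type list. That rule also changes which regions the orc1P179A lists share, so the 7 are not a part of the 23. Singly, the lists held 5 and 9 regions that wild type lacked, with folds from 1.77 to 2.25, and 0 of them were shared. In the first list these were regions in NEW1, COG2, BGL2 and RSA1 and one at the right end of chromosome 2, and in the second list all 9 had their summit in a gene, among them HIS4, AVO1, ARP6 and ARC35. These genes are named after their values were seen.

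Orc1 from the same 2 strains was found at most kept Kos3 regions and at few of those lost. Over all 53 wild-type regions, 25 overlapped a region of at least 1 orc1P179A Orc1 list. For wild-type Orc1 that count was 51. Overlap with orc1P179A Orc1 also went with wild-type Kos3 fold. It held for 12 of 12 regions with a mean fold of at least 5 and 9 of 32 under 3. Of the 18 regions in both orc1P179A Kos3 lists, 16 overlapped a region of at least 1 orc1P179A Orc1 list, and 17 one of at least 1 wild-type Orc1 list. Of the 28 in neither, the counts were 5 for orc1P179A Orc1 and 28 for wild-type Orc1. The 2 wild-type Orc1 lists came from different strains, LRY3204 and LRY3211. Both held 14 of the 28, and the rest were in the LRY3211 list alone. The widest Orc1 region on chromosomes 1 to 7 was 31273 bp in the LRY3211 list and 7090 bp in the LRY3204 list. Kos3 lists of the orc1bah allele, which held 5 regions on chromosome 8 in each, share the wild-type lists as their comparison, so only their own values are given. Chromosomes 1 to 7 held 28 and 45 Kos3 regions in orc1bah, and the outer 20 kb held 6.52 and 10.6 kb of Kos3. More than 100 kb from the ends, Kos3 covered 2.79 and 3.98 kb in orc1bah.

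Chromosome 8 was described apart. It held 688 and 679 Kos3 regions in orc1P179A, against 12 and 19 in wild type. The ribosomal RNA genes (rDNA) lie on it from 785310 to 808672 and divide it into 785 kb on the left and 25.3 kb on the right. Left of the rDNA the orc1P179A lists held 681 and 671 regions, against 2 and 6 in wild type, means of 676 ± 7.07 and 4 ± 2.83. The orc1P179A lists covered 39.9% and 41.5% of that stretch, against 0.221% and 0.377% in wild type. In orc1P179A, 21.5% of the stretch was covered in both lists and 59.8% in at least 1. Right of the rDNA the counts were 7 and 8 in orc1P179A, against 7 and 9 in wild type. Together the lists shared 415 regions on chromosome 8, of which 408 were in neither wild-type list, 98.3%, or 93.2% of all 438 regions that they shared in the genome.

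The regions left of the rDNA were many, short and of nearly the same height. Their median width was 386 and 398 bp, and the middle 50% of widths ran from 276 to 564 bp in the first list and from 270 to 556 bp in the second. Folds had medians of 2.22 and 2.23 and ranged from 1.63 to 3.13 in the first list and from 1.56 to 3.59 in the second. Within the same lists the chromosome 1 to 7 maximum was 5.49 and 4.02, and 5 and 2 regions of those chromosomes had a higher fold than any region left of the rDNA. The median −log10 q was 4.77 and 4.72, and 21 regions in each list reached 10. None of these 21 overlapped one of the 21 of the other list, and at that threshold 0 regions were in both lists and in neither wild-type list. At a threshold of 5 there were 122.

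They followed one another at short distances with no wide gap. Neighbouring summits were a median of 939 and 927 bp apart, and the largest distances were 6422 and 7779 bp. The 15 windows of 50 kb from the left end each held from 24 to 54 summits in the first list and from 26 to 55 in the second, against at most 2 and 3 in wild type. Density was lowest next to the rDNA. The window from 700 to 750 kb held 24 and 26 summits, against medians of 48 and 47 over the first 10 windows. The last region ended at 779928, which is 5.38 kb left of the rDNA, and no other stretch of at least 4 kb left of the rDNA was free of regions in both orc1P179A lists.

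**Figure D5:**
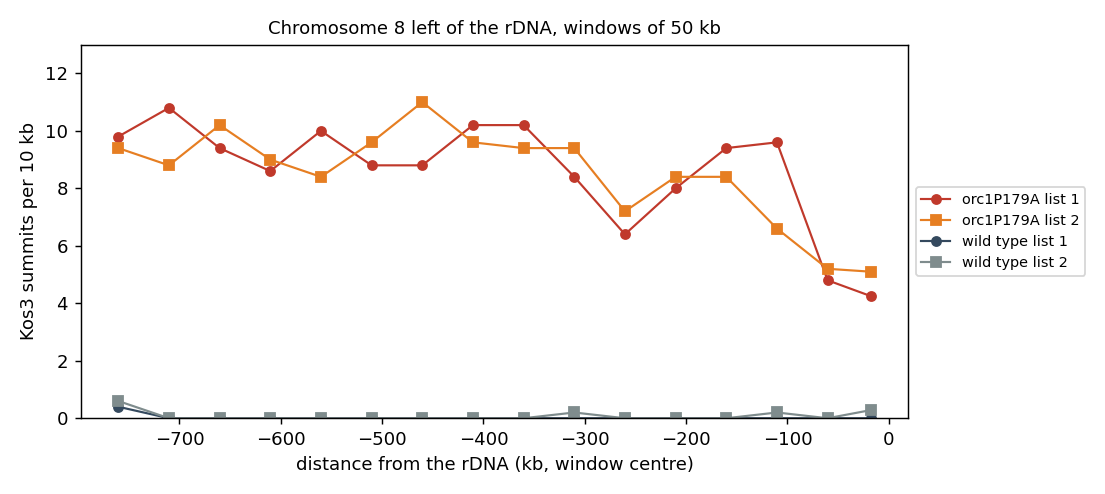
Kos3 summits per 10 kb in windows of 50 kb on chromosome 8 left of the rDNA (the window nearest to it is shorter), by distance of the window centre from the rDNA in kb; each line is 1 list, orc1P179A in red and orange and wild type in dark blue and grey. The orc1P179A lists hold a median of 9.10 and 8.90 summits per 10 kb and fewest next to the rDNA, 4.25 and 5.10, and the wild-type lists at most 0.40 and 0.60.

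Most of these summits lay inside genes. They did so in 610 of 681 cases in the first list, 89.6% (Wilson 95% interval 87.1% to 91.7%), and in 592 of 671 in the second, 88.2% (85.6% to 90.5%), where genes make up 79.3% of the bases. More than 20 kb from the ends, the mean was 90.6%. On chromosomes 1 to 7 the regions of the same lists were split by overlap with wild type. Regions that overlapped a wild-type region had 34.4% (20.4% to 51.7%) and 28.9% (11 of 38, interval up to 44.8%) of their summits in genes. Those that overlapped none were few and had 4 of 5 and 9 of 9 summits in genes. Each of these 5 and 9 regions was in 1 list only, so whether a high share in genes is particular to chromosome 8 was not tested. The share of bases in genes around the regions of chromosomes 1 to 7 was not determined. The intervals hold counting error only, and the peaks of a list are not replicates, so they do not test 1 set of regions against another. Within genes the middle was not preferred, with 49.0% (45.1% to 53.0%) and 46.5% (42.5% to 50.6%) of the summits in protein-coding genes lying in the middle 50% of the gene.

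Most genes of the stretch held a summit, where neighbouring summits were a median of 939 and 927 bp apart. How many genes summits of this density would reach without regard to genes was not tested. Of 440 protein-coding genes left of the rDNA, 291 (66.1%) held a summit in both orc1P179A lists, 113 in 1 list and 36 (8.18%) in neither. The median gene length was 1458, 828 and 431 bp in these 3 classes. Within 500 bp of the 16 tRNA genes, which is 2.11% of the stretch, lay 9 (1.32%) and 7 (1.04%) summits, and 3 in each list lay in genes of ribosomal proteins, of which the stretch has 5.

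Of the regions of the first list 75.5% overlapped one of the second, and of the second 73.5% overlapped one of the first. With summits within 200 bp as the stricter rule, the shares were 42.6% and 43.1%. How often regions of this number and width would meet without regard to each other was not tested. On chromosomes 1 to 7 the 2 lists overlapped in 62.2% and 57.4% of their regions.

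The strongest chromosome 8 region shared by both orc1P179A lists lay at the right end, at 832963 to 833874, with folds of 2.23 and 4.18, and wild type had it too, with folds of 6.10 and 10.9. The next 4 lay left of the rDNA. They reached from RHO1 into MMS1 at 74152 to 75471 (folds 2.35 and 3.59), from MLC2 through RPO26 into PZF1 at 37063 to 39917 (folds 2.78 and 3.11), over CEM1 at 345113 to 346421 (folds 2.71 and 3.13) and from RPN3 into STE24 at 120830 to 121896 (folds 2.87 and 2.87). At the first 2 places the highest summits of the lists were in different genes, RHO1 and MLC2 in the first list and MMS1 and PZF1 in the second. In Saccharomyces cerevisiae, MMS1 acts in repair at replication forks, PZF1 is the transcription factor of the 5S rRNA genes, CEM1 is a mitochondrial enzyme of fatty acid synthesis and STE24 is a protease that matures a mating pheromone. No wild-type list had a Kos3 region at these 4 places.

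Orc1 regions of the same strains covered part of the same stretch. Orc1 lists of orc1P179A held 292 and 435 regions left of the rDNA, against 23 and 26 in the wild-type Orc1 lists. In the Orc1 list of its own strain, 35.5% of the regions of the first Kos3 list and 47.2% of the second had an overlapping region, while 76.0% and 72.2% of those Orc1 regions overlapped a Kos3 region. With the Orc1 lists of sir2, a strain whose labels name no orc1 allele, the shares were 47.0% and 44.6% for the first Kos3 list and 47.2% and 46.3% for the second. The Orc1 regions covered 16.6% and 24.5% of the stretch in orc1P179A and 23.3% and 22.6% in sir2. All lists were called on an input of JRY10156 and hold no read counts, so that a difference in the amount of chromosome 8 DNA between a strain and the input, and binding along the chromosome, cannot be told apart.

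The rDNA itself differed the other way. Over it and 5 kb on each side orc1P179A had 0 Kos3 regions in either list, against 3 and 5 in wild type. Found in both wild-type lists were a region at the first 5S gene, at 792644 to 793285 with folds of 1.71 and 1.86, and one at the second, at 801352 to 802001 with folds of 1.64 and 1.90. These were the only regions in both wild-type lists on chromosome 8 more than 20 kb from its ends. The rDNA is a repeat of many copies, of which the assembly holds a few, so that reads of all copies fall on these places. The absence was not particular to Kos3 in orc1P179A. Over the rDNA and 5 kb on each side both orc1bah Kos3 lists also had 0 regions. So did the Orc1 lists of orc1P179A and of sir2, against 3 and 3 in the wild-type Orc1 lists.

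Near the ends of chromosome 8, where wild type had Kos3, the excess left of the rDNA falls on the same places. Of the 9 wild-type regions of the chromosome, 5 and 6 were in the orc1P179A lists. Right of the rDNA, where there was no excess, 4 of 5 were in both. The region in TDEL0H04520 at 817981 to 818491 covered 351 and 427 bp in orc1P179A, against 293 and 511 bp in wild type, so that the groups overlapped. The region at 830943 to 832440 covered 591 and 419 bp, against 1237 and 1498 bp in wild type. The one at 827568 to 828207, with wild-type folds of 2.28 and 3.58, was in neither. Over the outer 20 kb of that end Kos3 covered 3.19 and 3.30 kb in orc1P179A, against 3.99 and 6.36 kb in wild type.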

How the data were processed

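Each deposited file is the peak list of 1 library. The submitters' processing notes name Bowtie2 2.3.4.1 and MACS2 2.2.7.1; their settings and the read filters are not given in the sources used here. Per the deposited files, each peak has a position, a summit, a fold (a linear ratio over background) and a −log10 q-value; the lowest −log10 q in the 4 lists was 1.37, so weaker peaks were not analysed here. Peak names hold the word subsample, a step the labels do not describe, another input number than the file names and, in the second orc1P179A list, replicate number 1. Groups come from the titles.

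Coordinates are 1-based. Genes are those of assembly ASM24337v1 (5174 genes). The chromosome match was checked: with genes of the same chromosome 68.8% to 87.3% of strong wild-type Orc1 summits lay outside genes, against at most 40.5% with another. Chromosomes were taken to end where the last gene or peak does. No 2 lists were identical, and no peaks of a list touched. Wild-type regions span all linked peaks of both wild-type lists, and orc1P179A length at them counts only the part inside that span. Overlap counting was tested on simulated lists (Python 3.11.15, pandas 2.3.3, scipy 1.17.1).

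Regions and lists were chosen with earlier results of these data known. Named were the 8 strongest wild-type regions, the 6 strongest missing from both or held by 1 orc1P179A list, the strongest on chromosome 8, and the loci HML, rDNA, SIR1, SIR2, ORC1 and SLA2; other regions and genes were named after their values were seen. Alternatives were −log10 q thresholds, other overlap rules, end widths, lists left out and ratios within replicate numbers.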

Additional observations from a re-analysis of the deposited data

How the results depend on the processing

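No ratio of orc1P179A to wild type crossed 1 under any of the 41 alternatives run on the 5 ratios. Keeping only regions with a −log10 q from 5 upwards and from 10 upwards, the region ratio was 0.299 and 0.258 on chromosomes 1 to 7 and 25.8 and 2.87 on chromosome 8. The ratio of covered length was 0.115 and 0.0687 within 20 kb of ends, 0.196 and 0.172 farther inside, and 0.295 and 0.292 at kept regions. The share of wild-type regions found was 37.1% and 31.3% on chromosomes 1 to 7 and 50% and 20% on chromosome 8. Regions gained on chromosome 8 numbered 122 and 0, the overlap of the orc1P179A lists there was 47.0% and 0%, summits in genes 91.4% and 94.6%, and the median spacing 1846 and 18410 bp; at 10 the overlap on chromosomes 1 to 7 was 87.5%. With 50% overlap the orc1P179A lists shared 51.8% of regions on chromosomes 1 to 7 and 63.1% on chromosome 8. With summits within 200 bp these were 41.1% and 42.9%, the wild-type regions found 33.7%, the length ratio at kept regions 0.301, and 7 regions were gained on chromosomes 1 to 7. With 37 regions from each list 65.4% were found. The cause of these shifts was not tested.

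Leaving out each list in turn gave from 21.5% to 41.5% of wild-type regions found on chromosomes 1 to 7 and from 47.4% to 66.7% on chromosome 8, length ratios at kept regions from 0.302 to 0.350, and from 0 to 9 and from 408 to 678 gained regions on chromosomes 1 to 7 and on chromosome 8.

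The replicate numbers are only shared numbers, since the 2 orc1P179A libraries come from 2 strains and the wild-type libraries from another. With the replicate block, the ratios were 0.432 and 45.3 for regions on chromosomes 1 to 7 and on chromosome 8, 0.196 and 0.264 for length near and away from ends, and 0.322 at kept regions. Unknown depth limits all counts of weak regions.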
